A study of Mus musculus with 12 samples.

Results

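Sox2 encodes SOX2, an HMG-box transcription factor that works with OCT4 to keep embryonic stem (ES) cells pluripotent. Accessible chromatin was described here between 20 kb and 200 kb from the Sox2 transcription start site (TSS, position 34650405 of chromosome 3, plus strand, GRCm38/mm10) in mouse ES cells. A region of the merged ATAC-seq peak list was a member when its center lay in this range, with upstream and downstream counted apart. Of 170548 regions in the list, 35 were members, 9 of them upstream and 26 downstream.

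ATAC-seq marks open chromatin by letting the Tn5 transposase cut accessible DNA. The series holds 12 libraries in 6 groups of 2 replicates from 2 ES cell lines grown in serum with LIF and 2 inhibitors (CHIR99021 and PD184352). In ZHBTc4 cells a Tet-Off promoter drives Pou5f1, which encodes OCT4, and doxycycline (dox, 1 µg/ml) shuts it off: untreated cells are OCT4 ON and cells given dox are OCT4 OFF, both at 24 hr. In 2TS22C cells the same kind of promoter drives Sox2, and the groups are SOX2 ON and SOX2 OFF at 26 hr and at 40 hr. In both lines the endogenous alleles of the factor are inactivated and the transgene supplies it. The list pools all groups. The paper also analyzed published ATAC-seq data of ZHBTc4 cells in serum with LIF, and whether their peaks are included is not stated. Each region has a start and an end, with no height and no value per library. No member can therefore be assigned to a line, a treatment or a replicate, no effect of dox was tested, and the depth behind each region is unknown.

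Developmental regulators are often read out through enhancers that lie far from the promoter and contact it by looping. Sox2 is a textbook case. It is a short gene inside an intron of the long non-coding gene Sox2ot, has enhancers close by that are used in stem cells and the nervous system, and depends in ES cells on a distant downstream cluster of enhancers known as the Sox2 control region. In ES cells such elements are bound by OCT4, SOX2, NANOG, KLF4, ESRRB, STAT3 and other factors, while CTCF sites are common at the anchors of loops. No other protein-coding gene starts in this range: the nearest coding TSS upstream was that of Dnajc19 at 569.1 kb, and the nearest downstream was that of Atp11b at 1104 kb.

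The sequences below are central 300 bp windows on the plus strand of GRCm38. The first 3 are the widest regions with a center 90 to 120 kb downstream, a window set from general knowledge of where the control region lies. The fourth is a narrower neighbor with an ESRRB match, and the last lies at an internal start of Sox2ot. Those 2 were chosen after their values were seen. Capitals mark motif matches.
Sox2 94.9 kb downstream, chr3:34745167-34745466: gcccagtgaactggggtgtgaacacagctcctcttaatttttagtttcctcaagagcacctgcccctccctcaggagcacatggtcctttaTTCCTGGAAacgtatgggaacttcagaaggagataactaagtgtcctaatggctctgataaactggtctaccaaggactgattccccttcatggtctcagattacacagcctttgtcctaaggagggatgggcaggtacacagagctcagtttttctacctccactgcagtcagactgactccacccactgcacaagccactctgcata
Sox2 106.4 kb downstream, chr3:34756607-34756906: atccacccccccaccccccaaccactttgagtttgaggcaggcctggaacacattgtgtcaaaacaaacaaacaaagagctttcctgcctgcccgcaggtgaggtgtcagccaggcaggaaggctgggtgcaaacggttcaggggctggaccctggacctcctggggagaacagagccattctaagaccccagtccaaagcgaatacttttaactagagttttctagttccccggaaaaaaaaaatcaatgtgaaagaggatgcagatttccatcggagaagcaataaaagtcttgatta
Sox2 110.0 kb downstream, chr3:34760280-34760579: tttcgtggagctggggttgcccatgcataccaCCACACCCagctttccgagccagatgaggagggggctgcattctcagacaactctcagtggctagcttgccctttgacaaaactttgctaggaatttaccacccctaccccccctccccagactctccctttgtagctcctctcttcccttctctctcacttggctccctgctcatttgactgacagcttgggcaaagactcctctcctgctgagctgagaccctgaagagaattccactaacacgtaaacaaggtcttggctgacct
Sox2 107.6 kb downstream, chr3:34757883-34758182: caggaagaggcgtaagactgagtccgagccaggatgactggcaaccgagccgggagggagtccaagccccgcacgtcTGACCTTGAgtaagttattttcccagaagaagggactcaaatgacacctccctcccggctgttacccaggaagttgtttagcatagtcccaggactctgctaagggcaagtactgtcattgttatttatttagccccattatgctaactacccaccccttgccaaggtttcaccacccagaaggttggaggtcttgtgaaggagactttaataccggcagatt
Sox2 89.8 kb upstream, chr3:34560451-34560750: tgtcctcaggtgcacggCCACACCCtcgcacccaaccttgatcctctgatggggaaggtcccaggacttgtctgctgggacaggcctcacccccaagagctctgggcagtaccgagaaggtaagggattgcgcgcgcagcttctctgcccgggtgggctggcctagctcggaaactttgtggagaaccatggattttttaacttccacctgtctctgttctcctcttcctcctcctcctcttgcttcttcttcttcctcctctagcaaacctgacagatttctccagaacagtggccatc
In these windows the capitals are a STAT match at 94.9 kb downstream, a KLF match at 110.0 kb downstream, an ESRRB match read on the minus strand at 107.6 kb downstream, and a KLF match at 89.8 kb upstream. The window at 106.4 kb downstream held none of the motifs searched.

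The downstream side held most of the accessible regions. Its 26 regions covered 11583 bp, which is 6.43% of the 180 kb examined on that side, against 3671 bp and 2.04% for the 9 upstream regions. From 28.6 to 163.1 kb downstream, no gap between neighboring members was longer than 10.5 kb. On the upstream side, 2 members lay at 20 to 50 kb, 5 at 50 to 100 kb, 0 at 100 to 150 kb and 2 at 150 to 200 kb. The corresponding downstream numbers were 6, 9, 9 and 2.

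**Figure D1:**
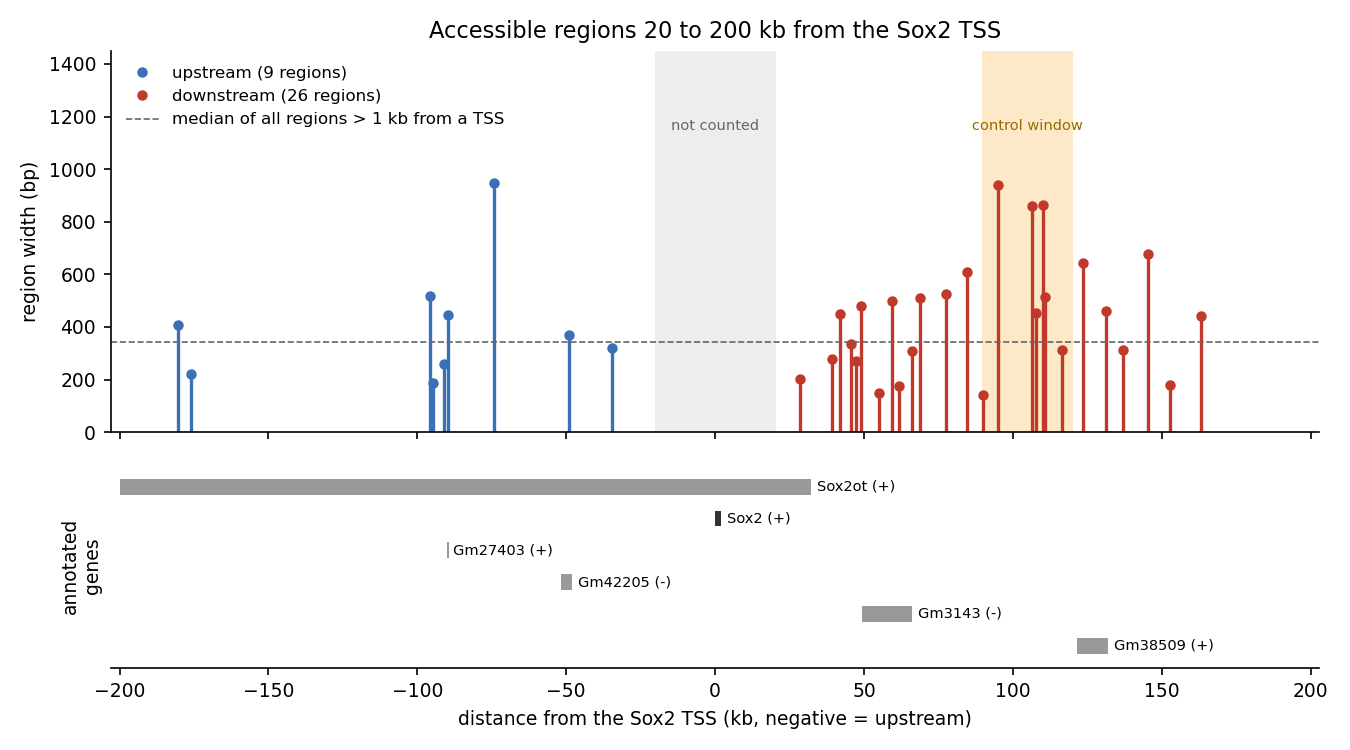
Members by distance from the Sox2 TSS in kb (horizontal axis, negative upstream) with the width of each region in bp as height (9 upstream regions, blue, and 26 downstream regions, red), over the annotated genes that overlap a member and Sox2. The dashed line is the median width of all regions more than 1 kb from a TSS, the gray band is the part within 20 kb that was not counted, and the 3 tallest downstream lines, at 860 to 939 bp, stand in the shaded control window.

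The same rule was applied to every protein-coding gene of the autosomes and the X chromosome, as a rank with no test. Among 21755 genes the median was 17 regions on either side (quartiles 9 and 25 upstream, 9 and 26 downstream) and 35 on both. At least as many regions as around Sox2 were found upstream of 77.1% of genes, downstream of 25.0%, and on both sides together around 51.2%. Set against all genes, the locus therefore held an ordinary number of regions.

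Most genes have other genes close by, whose own promoters and enhancers can lie in the range counted. How many of the regions belong to such neighbors was not tested. Of the genes tested, 1093 had no other protein-coding TSS within 200 kb, and Sox2 is one of them. Their median was 7 regions upstream, 7 downstream and 15 on both sides. At least as many as around Sox2 were found upstream of 37.3% of these isolated genes, downstream of 4.67%, and on both sides of 9.33%. The 17 regions by which the sides of Sox2 differed were matched or exceeded at 10.2% of all genes and at 3.75% of isolated genes. That difference was not a planned measure and is made of the same counts, so it is not a separate result. The rank of Sox2 on the downstream side thus depended on which genes it was set against.

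**Figure D2:**
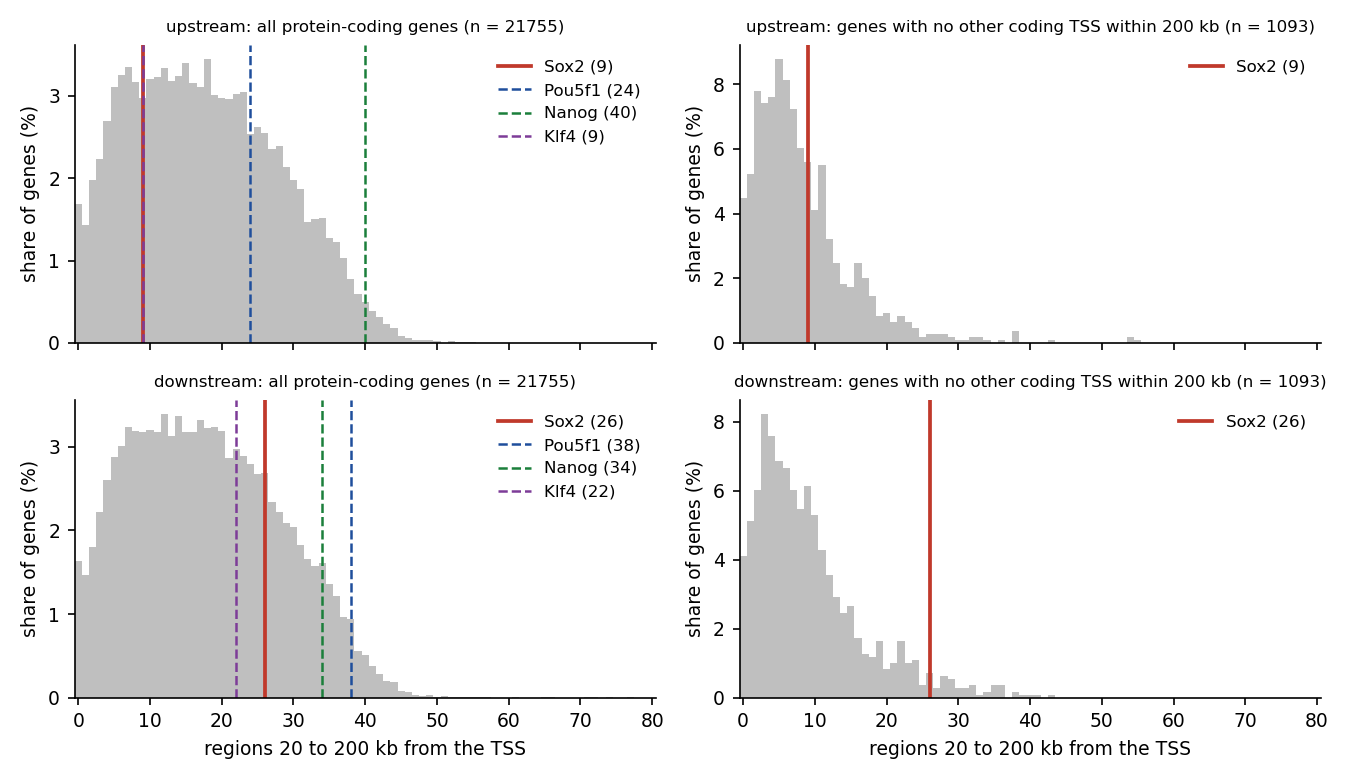
Share of genes (vertical axis, %) by number of regions 20 to 200 kb upstream (top) or downstream (bottom) of the TSS, for all 21755 protein-coding genes (left) and the 1093 with no other coding TSS within 200 kb (right). Vertical lines mark Sox2 (9 upstream, 26 downstream) and, on the left, Pou5f1, Nanog and Klf4; Sox2 and Klf4 coincide upstream.

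Other genes of the pluripotency network were set beside Sox2 by the same rule. Klf4, which encodes a Krüppel-like factor, came closest, with 9 regions upstream and 22 downstream and 1 other coding TSS within 200 kb. Pou5f1 had 24 upstream and 38 downstream, among 17 other coding TSSs. Nanog, a homeobox gene, had 40 upstream and 34 downstream, among 8 other coding TSSs. The share of these regions more than 1 kb from any annotated TSS was 91.4% at Sox2 (32 of 35), 83.9% at Klf4, 78.4% at Nanog and 67.7% at Pou5f1, against 82.7% over the whole list. The widest region in range was 948 bp at Sox2, 1588 bp at Klf4, 1720 bp at Pou5f1 and 2190 bp at Nanog. The widest Sox2 region was thus narrower than that of each of the other 3 genes. The median width at Sox2, 441 bp, lay between those of Klf4 (396 bp) and Nanog (387.5 bp) below and that of Pou5f1 (529.5 bp) above.

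In steps of 20 kb, downstream regions were densest at 40 to 60 kb, with 6 regions, and at 100 to 120 kb, with 5. At least as many were found at 1.92% of isolated genes for 40 to 60 kb and at 2.65% for 100 to 120 kb, and the median was 1 in both. Upstream, the highest step was 80 to 100 kb with 4 regions, a number reached at 3.66% of isolated genes. Among all protein-coding genes the shares were higher, at 4.47% for 40 to 60 kb and 9.68% for 100 to 120 kb downstream. For 80 to 100 kb upstream the share of all genes was 19.6%. These 3 steps were picked because Sox2 was high there, so their shares are a description of the peaks of the profile.

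**Figure D3:**
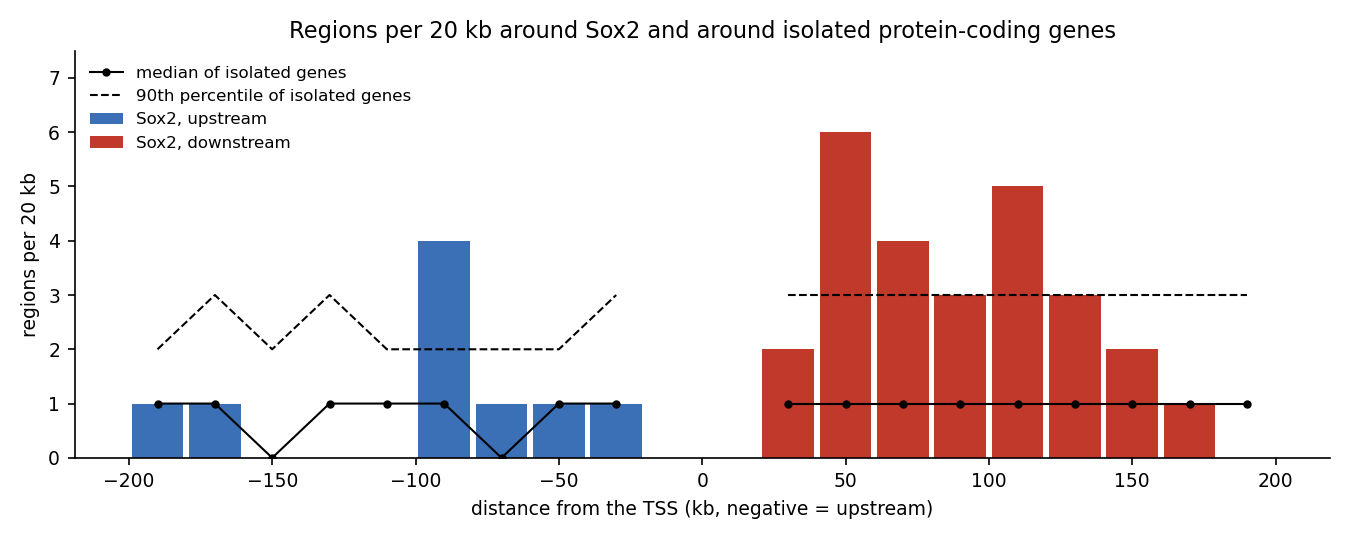
Regions per 20 kb (vertical axis) by distance from the TSS in kb (horizontal axis, negative upstream) at Sox2 (bars) and over 1093 isolated protein-coding genes (solid line, median; dashed line, 90th percentile). Sox2 rises above the dashed line at 80 to 100 kb upstream and at 40 to 80 and 100 to 120 kb downstream, and has no region at 100 to 160 kb upstream.

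The control window held 6 members, which spanned 22.4 kb and covered 3941 bp. At least 6 regions in the same window were found at 16.0% of all protein-coding genes (median 3) and at 4.03% of isolated genes (median 1). Of the 6, 3 were 860 to 939 bp wide and the others 311, 453 and 513 bp. Their median width was 686.5 bp, where the 29 other members had 368 bp and the 141112 regions of the list more than 1 kb from any TSS (distal regions) had 344 bp (quartiles 213 and 559). None overlapped an annotated gene, and the nearest annotated TSS was that of a transcript of the lincRNA Gm38509, 5.02 to 26.8 kb away.

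The first of them, centered 94.9 kb downstream, ran from 34744848 to 34745786 and was the second widest member at 939 bp, wider than or equal to 94.1% of regions more than 1 kb from a TSS. It had 10.5 kb to the next member and no other center within 5 kb. Its GC content was 43.3% and 25.6% of its bases were soft-masked, which marks repeats and low-complexity sequence.

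The next 4 lay within 5.29 kb, from 34756327 to 34761617, and covered 2.69 kb of it. They were centered 106.4, 107.6, 110.0 and 111.0 kb downstream. The region at 106.4 kb (34756327 to 34757186) was 860 bp wide, with a GC content of 47.6%. The region at 107.6 kb (34757807 to 34758259) was 453 bp wide, with a GC content of 49.0%. The pair that followed was separated by 242 bp, the shortest gap between any members: 865 bp at 110.0 kb (34759998 to 34760862, GC content 52.0%) and 513 bp at 111.0 kb (34761105 to 34761617, GC content 51.5%). Each of the 4 had 4 region centers within 5 kb, itself included, a crowding reached by 8.70% of regions more than 1 kb from any TSS. Of the other members, those at 94.7 and 91.2 kb upstream and at 45.7 kb downstream reached it too. The last member of the window, 311 bp at 116.6 kb (34766900 to 34767210), again stood alone, with a GC content of 44.1% and 45.7% of its bases soft-masked.

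**Figure D4:**
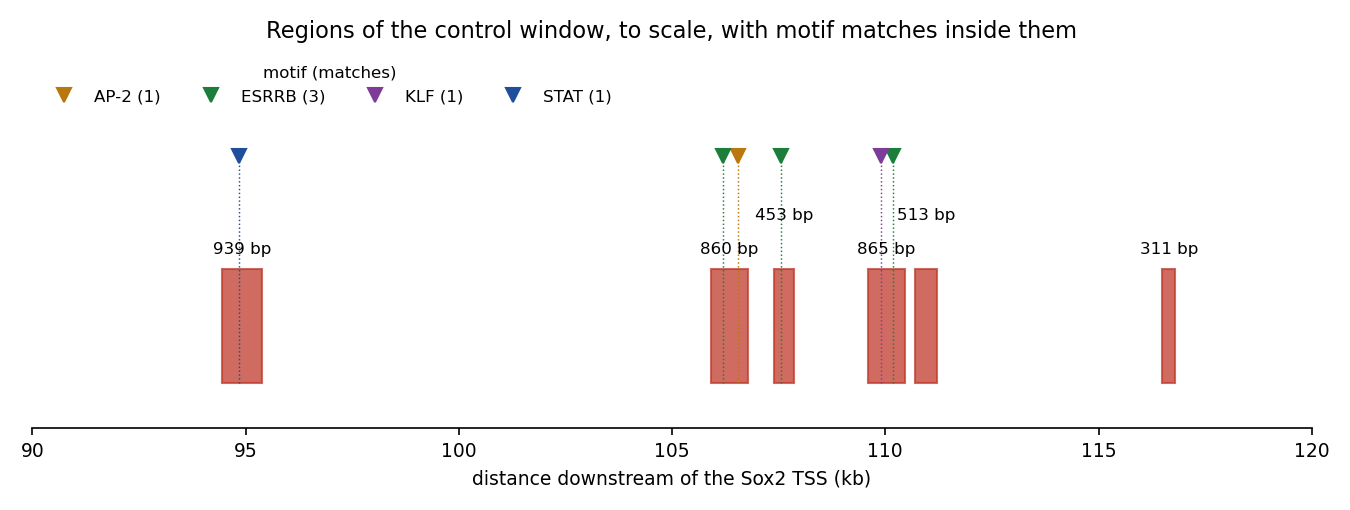
The 6 regions of the control window drawn to scale by distance downstream of the Sox2 TSS in kb, with their widths; triangles mark motif matches inside the regions (3 ESRRB, 1 each of AP-2, KLF and STAT). The 3 ESRRB matches fall in 3 of the 4 regions that crowd within 5.29 kb, and the 513 bp and 311 bp regions hold no match.

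Both strands of the central 300 bp were scanned for 8 motifs: the OCT octamer ATGCAAAT, the SOX element CCATTGT, the ESRRB element TCAAGGTCA, the KLF element CCACACCC, the STAT element TTCCNGGAA and the AP-2 palindrome GCCNNNGGC without mismatch, the CTCF consensus core without mismatch, and the OCT4::SOX2 composite with at most 2 mismatches. The composite contains the octamer and most of the SOX element, so those matches can overlap. A match is a string of letters and not evidence that a factor was bound. A missing match is likewise not evidence that a site is absent. The window kept its 300 bp where a region was narrower, so a match in it can lie outside the region. At least 1 of the 8 motifs was present in 9 of 35 members (25.7%, 95% Wilson interval 14.2 to 42.1%), against 29.5% of regions more than 1 kb from any TSS. The members were thus not richer in these letters than distal regions at large.

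The OCT octamer was in 0 of 35 members, where the interval reaches 9.89%, against 3.06% of distal regions, and no octamer was found when whole regions were searched. The OCT4::SOX2 composite was likewise in 0 members, against 0.534% of distal regions. With 3 mismatches allowed it was in 2 members, at 116.6 and 152.7 kb downstream, against 3.31% of distal regions, and with 1 allowed in 0, against 0.0531%. With backgrounds this low and 35 members, a count of 0 does not set the locus apart. Such strict strings miss sites with other letters, so it does not show that the members lack OCT or OCT4::SOX2 sites. The paper searched with HOMER motifs instead, which was not done here. The SOX element was in 2 members (background 6.77%), at 95.6 kb upstream and 68.8 kb downstream. Both are printed below with 15 bases on either side, read on the strand of the match, because SOX2 is the product of the gene.
SOX match 95.6 kb upstream, chr3:34554803-34554839, minus strand: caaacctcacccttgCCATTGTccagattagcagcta
SOX match 68.8 kb downstream, chr3:34719259-34719295, plus strand: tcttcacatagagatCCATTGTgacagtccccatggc
The CTCF core was in 0 members (background 3.32%), and with 1 mismatch allowed in 1, at 94.7 kb upstream (background 13.6%).

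The STAT element was in 1 member (background 1.32%), at 94.9 kb downstream, 55 bp from its center. The KLF element was in 2 (background 5.23%), at 89.8 kb upstream and 110.0 kb downstream, each more than 100 bp from the center. The AP-2 palindrome was in 3 members (background 10.9%), at 94.7 kb upstream and 55.1 and 163.1 kb downstream, and in 5 of 35 whole regions, against 14.2% of distal regions. The additional regions were those at 106.4 and 123.7 kb downstream.

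The ESRRB element was in 1 member in the central window (background 1.90%), at 107.6 kb downstream, and in 3 of 35 whole regions, against 2.52% of distal regions. ESRRB is an orphan nuclear receptor of the pluripotency network. All 3 matches lay in the control window, at 106.4, 107.6 and 110.0 kb downstream, and all 3 were on the minus strand. The first 2 are printed here with 15 bases on either side, as read on that strand.
ESRRB match 106.4 kb downstream, chr3:34756571-34756609, minus strand: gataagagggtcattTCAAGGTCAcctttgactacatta
ESRRB match 107.6 kb downstream, chr3:34757945-34757983, minus strand: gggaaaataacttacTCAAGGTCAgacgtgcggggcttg
The first 2 matches lay 166 bp and 69 bp from the centers of their regions on the side of Sox2, and the third lay 148 bp from its center on the far side. Wide regions have more room for a match. Among distal regions within 10% of the same width, 4.49% held the element at the width of the first, 2.53% at that of the second and 4.50% at that of the third. Of the 62, 74 and 31 regions in the same range around Pou5f1, Nanog and Klf4, 1, 3 and 0 held the element anywhere inside the region. In the central window, which can run past a narrow region, the numbers were 3, 3 and 0, against 1 at Sox2. Sox2 was thus below Pou5f1 and Nanog by the central window. The ESRRB matches were singled out after the values were seen.

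The remaining downstream members stood on both sides of the control window. The nearest member, 204 bp from 34678897 to 34679100, was centered 28.6 kb from the TSS and overlapped an exon of Sox2ot, which ends 32.2 kb downstream of the Sox2 TSS. Next came 5 intergenic regions between 39.3 and 48.9 kb, 269 to 478 bp wide. All but the first fall in the densest step of the profile, 40 to 60 kb, with the members at 55.1 and 59.3 kb. They spanned 10.0 kb and covered 1807 bp. Their GC contents lay between 50.0 and 53.9%, all above the 48.3% median of distal regions, and the one at 41.9 kb had 17 CpGs in 448 bp. The region at 39.3 kb was 75.9% soft-masked.

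The lincRNA Gm3143, transcribed from the minus strand, overlapped 4 members, at 55.1, 59.3, 61.9 and 66.1 kb. The region at 59.3 kb, 498 bp wide, and that at 66.1 kb, 307 bp wide, touched its exons, while those at 55.1 and 61.9 kb, 150 and 175 bp wide, lay in its introns. The region at 66.1 kb was centered 121 bp from the TSS of Gm3143 and was 91.5% soft-masked, the highest share of any member. Between Gm3143 and the control window lay 4 intergenic regions, of 511 bp at 68.8 kb, 527 bp at 77.6 kb, 608 bp at 84.7 kb and 140 bp at 89.9 kb. The last is the narrowest member and lies just short of the window's limit of 90 kb.

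Beyond the control window were 6 members, spread over 39.9 kb, of 642 bp at 123.7 kb, 461 bp at 131.4 kb, 314 bp at 137.0 kb, 677 bp at 145.3 kb, 180 bp at 152.7 kb and 441 bp at 163.1 kb. The regions at 123.7 and 131.4 kb overlapped the lincRNA Gm38509, the second of them at an exon. Those at 123.7 and 145.3 kb had 2.96 and 2.66 CpGs per 100 bp, against a median of 1.21 for distal regions. The region at 152.7 kb had none, with the lowest GC content of the members, 33.9%. The farthest member ran from 34813274 to 34813714. No region followed until one of 373 bp at 234.8 kb, outside the limit.

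All 9 upstream members lay inside Sox2ot, which starts 546.1 kb upstream of the Sox2 TSS and is transcribed in the same direction. With the downstream region at 28.6 kb, 10 of 35 members (28.6%, 95% Wilson interval 16.3 to 45.1%) overlapped this gene. The overlap follows from its length, since it spans the whole upstream side. Only 2 of the 9, at 89.8 and 34.6 kb, touched one of its exons. The function of Sox2ot transcription near Sox2 was not addressed by these data.

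Upstream regions came as a group of 4, a distant pair and 3 single ones. The group, between 95.6 and 89.8 kb upstream, spanned 6.28 kb and covered 1408 bp. Its first region (34554547 to 34555063) was 517 bp wide and carried the SOX element 16 bp from its center. It was followed by regions of 186 bp at 94.7 kb, with the highest GC content of the members, 61.3%, and of 261 bp at 91.2 kb, with a GC content of 37.9%. The fourth, 444 bp at 89.8 kb (34560379 to 34560822, GC content 54.5%), was centered 115 bp from the start of an annotated Sox2ot transcript and overlapped a small RNA gene, Gm27403. It was one of 3 members within 1 kb of an annotated TSS, with the region at the start of Gm3143 and a region of 368 bp at 48.9 kb upstream, which lies 792 bp from the TSS of the lincRNA Gm42205. All 3 starts belong to non-coding genes.

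The widest member of all, 948 bp from 34575734 to 34576681, was centered 74.2 kb upstream and stood alone, 14.9 kb from the group and 24.6 kb from the next member. It held none of the 8 motifs. Its GC content was 46.9% and 27.1% of its bases were soft-masked. The nearest upstream member, 319 bp at 34.6 kb (34615684 to 34616002), had no soft-masked base and 2.82 CpGs per 100 bp. The farthest pair lay at 176.1 kb (221 bp) and 180.4 kb (407 bp, 34469837 to 34470243). Between this pair and the group was a stretch of 80.1 kb with no region. Of all 170527 gaps between neighboring regions on a chromosome 2.50% were at least as long, and the median gap was 6.55 kb. This stretch was picked as the longest between upstream members, so the share describes that gap and not how often a side holds one. Beyond the pair, the next region upstream was 325 bp wide, at 258.9 kb.

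Widths of the members ran from 140 to 948 bp. Their median of 441 bp and lower quartile of 273.5 bp were above those of distal regions, 344 and 213 bp. At least 600 bp was reached by 7 members, 6 downstream and 1 upstream, and 3 of the 7 were in the control window. The share in distal regions was 21.8%, or 30695 regions, so that 7 of 35 was an ordinary number. The upper quartile of the members, 515 bp, was in turn below that of distal regions, 559 bp. The median GC content was 49.0% (range 33.9 to 61.3%) against 48.3%, and the median CpG density 1.43 per 100 bp against 1.21. Soft-masked bases made up a median of 19.6% of a member against 13.7% of a distal region, and 4 members were more than 50% soft-masked, against 19.4% of distal regions. None of the members was wider than 5 kb, the width above which the authors' methods remove peaks, so that step leaves the members as they are.

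Just inside the 20 kb limit, and thus not counted, were a region of 452 bp at 18.1 kb downstream and one of 775 bp at 10.7 kb upstream. No region had its center between 18.1 and 28.6 kb downstream or between 10.7 and 34.6 kb upstream, so a small shift of the limit would not change the members.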

How the data were processed

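ATAC-seq was performed by the authors in 12 libraries of ZHBTc4 and 2TS22C cells. Per the paper's methods, reads were aligned to mm10 (GRCm38) with STAR 2.6.1c, duplicates were removed with Picard, peaks were called with MACS2 2.1.1.20160309 and the peaks of all experiments of both lines were merged with BEDTools. The deposited values are region starts and ends in bp, with no count or score. Whether peaks were called per replicate is not given in the sources used here. The list still held 16 regions wider than 5 kb, so the authors' removal of such peaks does not show in it. The paper describes the removal of Input and blacklisted peaks together with that step. Whether those peaks are still listed was not checked, so the backgrounds may include them.

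Centers, widths and overlaps were computed with Python 3.11.15, NumPy 2.4.6 and pandas 2.3.3 against GRCm38.p6 (RefSeq sequence) and GENCODE M21. Coordinates are counted from 1. Each protein-coding gene had 1 TSS, the start of its gene model, and distal regions lay more than 1 kb from any transcript start. Soft-masking is that of the RefSeq sequence. The functions were tested on simulated data. Wilson intervals cover regions, which are not replicates.

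The members and motifs were chosen with earlier results of these data known. Named with full values were the control window, the 3 widest, the nearest and the farthest members of each side, the regions just outside the limits and any composite match. The other members were added so that each is accounted for. Sequences followed the control window rule, with exceptions stated. Sequence is printed around selected motif matches, and that around 1 of the ESRRB matches is not reported here.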

Additional observations from a re-analysis of the deposited data

How the results depend on the processing

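Regions carry no score, so a stricter peak threshold was not possible, and no library could be left out. No paired analysis was possible because the replicates are pooled in 1 list. Numbers of regions stayed within 1.5 times under every alternative run: 8 upstream and 22 downstream with only regions of at least 200 bp, 9 and 26 with regions less than 100 bp apart joined or distance taken from the nearest edge, and 5 or 9 in the control region with limits of 100 to 120 kb or 80 to 130 kb. With only regions of at least 200 bp, coverage was 1.94% upstream and 6.08% downstream. With TSSs of protein-coding genes only, 100% of members lay more than 1 kb from a TSS. The share of genes with at least as many regions as Sox2 moved most. For upstream, downstream and both sides it was 37.3%, 4.67% and 9.33% among isolated genes and 78.6%, 35.5% and 59.4% by bp covered. With only regions of at least 200 bp it was 74.0% upstream and 48.4% on both sides. Of 19 alternative motif searches, 14 stayed within 1.5 times. The others were whole regions for ESRRB (3 members) and AP-2 (5), the central 200 bp for KLF (0), and the looser CTCF (1) and composite (2) searches.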
